A study of Mus musculus with 36 samples.

Results

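Moderate and full ascorbate supply were compared in the livers of 12 Gulo-/- mice, chosen by their dose labels from the 36 mice of the series. The tested dose was 0.05% ascorbate in drinking water (GL05), given to 3 females (FGL05) and 3 males (MGL05), and it was set against 0.4% ascorbate (GL40), given to 3 females (FGL40) and 3 males (MGL40). Each dose was kept from weaning to the age of 4 months on a standard diet, and whole liver was taken after an overnight fast, so every mouse compared here was Gulo-/- and received ascorbate. Other mice of the series serve as context and, in the fit of all 36 mice, also enter the estimate of the spread. Gulo-/- mice given 0.4% ascorbate until 3 months of age and then none for a month are GL00. Gulo-/- mice on 0.01% from weaning are GL01, and those with ascorbate removed and added back are GLR40. Untreated wild type mice are WT00. The labels give an animal number to each mouse but no litter or batch. The numbers run from 2890 to 2898 in GL05 and from 2690 to 2719 in GL40, and whatever a number range may stand for cannot be told apart from the dose. With 3 mice for each sex and dose, p-values of the main fits measure only the spread between these 12 animals. Where a fit of all 36 mice is named, they rest on the spread within the 12 groups of the series.

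Mice normally make ascorbate from glucose in the liver, and L-gulonolactone oxidase, the product of Gulo, catalyses the last step. A Gulo-/- mouse therefore depends on its water for the vitamin, as humans depend on food. Ascorbate donates electrons in the cell and keeps the iron of 2-oxoglutarate-dependent dioxygenases reduced. This family includes the collagen and HIF prolyl hydroxylases, the TET enzymes that oxidise methylated cytosine, the JmjC histone demethylases and a carnitine synthesis enzyme.

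Transcript levels are given as TPM, a relative scale corrected for transcript length that sums to 1000000 in every mouse and keeps no depth. The sequencing depth of each library is therefore unknown here, as the study gives only a mean number of reads per sample. In bulk liver, fewer cells of a type and less RNA per cell cannot be told apart. Of 36066 genes, 18207 had a TPM above 0 in at least 8 of the 12 mice and were tested. The 12 livers each held 18701 to 19733 genes above 0 TPM, and their profiles correlated pairwise with a Pearson r of 0.975 to 0.995 across genes, which are not independent replicates. Labels and transcripts matched on the sexes: Ddx3y, a Y-linked gene, was at most 0.132 TPM in females and at least 19.7 TPM in males. The residual Gulo transcript averaged 30.6 ± 7.73 TPM in GL05 and 29.2 ± 6.19 TPM in GL40 (SD, n = 6 each), whereas WT00 females and males averaged 242 and 153 TPM. Each SD given for a dose mixes females and males, so it includes the sex difference that the tests remove. The hepatocyte marker albumin (Alb) was at 37560 TPM or more in every mouse.

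In a principal component analysis of the 12 livers the first component, with 51.6% of the variance, parted the sexes. The second, with 10.6%, set 2 mice on the moderate dose apart, FGL05-2895 at 30.8 and MGL05-2890 at 23.3, while the other 10 lay between -12.9 and 6.19. On this component the MGL05 mice, at 1.65 to 23.3, lay above the MGL40 mice, at -12.01 to -4.08, while the female doses overlapped. The mean distance between a GL05 and a GL40 female was 46, against 44.2 between females of one dose, and the corresponding distances in males were 45.5 and 42.4. One library also held transcripts of another organ: pancreatic acinar markers made up 1.65% of the TPM of FGL40-2695 and at most 0.0117% in every other mouse. This GL40 mouse also stood apart once the mean of each sex was removed. The second component of that analysis, with 13.7% of the variance, put it at -28.6 and all others between -8.79 and 12.7. The main counts and many of the lists are also given for the 10 mice without FGL05-2895 and MGL05-2890. This alternative was chosen after seeing the data, because these 2 mice stand apart, and it keeps FGL40-2695. They are the GL05 mice farthest from GL40 on the second component of the 12 livers. Leaving them out can therefore lower differences along that component by the choice itself. A smaller difference in the 10 mice is thus no independent check.

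**Figure D1:**
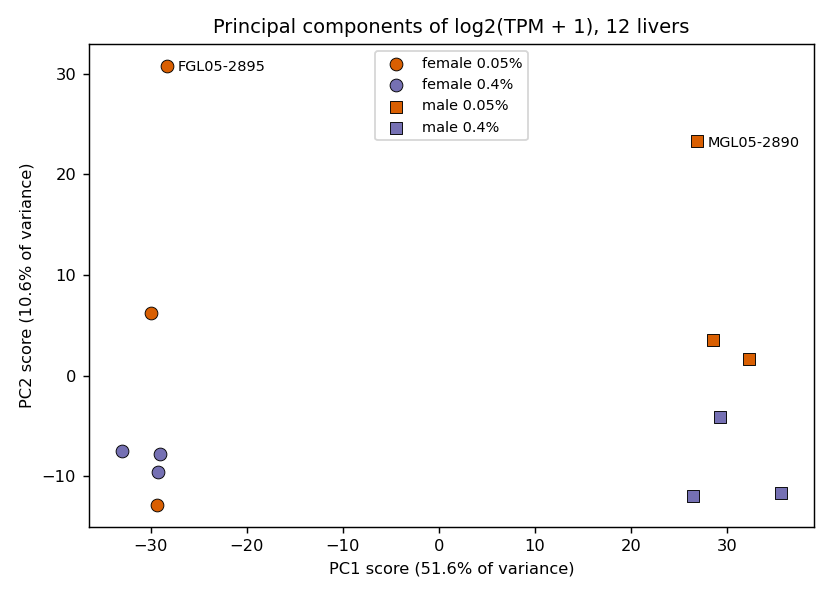
Each point is 1 liver, placed by its scores on the first (horizontal) and second (vertical) principal component of log2(TPM + 1) of the genes tested, with GL05 and GL40 and the sexes marked as in the legend. The sexes part along the horizontal axis, FGL05-2895 and MGL05-2890 lie highest at 30.8 and 23.3, the 3 MGL05 mice lie above the 3 MGL40 mice, and the female doses overlap.

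The question put to every gene was whether its level on the moderate dose differed from that on the full dose beyond the spread between mice. With limma on log2(TPM + 1) and sex as a block, none of the 18207 genes (0%) passed a Benjamini-Hochberg adjusted p of 0.05. At an unadjusted p under 0.05, 1423 genes (7.82%) were counted, 769 higher in GL05 (4.22%) and 654 lower (3.59%). The smallest adjusted p was 0.0974, shared by 3 genes, and Arhgap26 and Sucnr1 were among them. Other fits of the same contrast gave other counts. Requiring at least 1 TPM in 6 mice left Arhgap26 and Sucnr1 called, each with an adjusted p of 0.0457. Leaving out single mice gave 0 to 13 calls, with the 13 reached without FGL05-2896, and borrowing the spread of all 36 mice gave 23, or 54 with array weights. Genes at an unadjusted p under 0.05 numbered 1197 without FGL05-2895 and 2027 without FGL05-2896. Counts of gene lists without either mouse are to be read beside these totals. The 10 mice without FGL05-2895 and MGL05-2890 gave 0 calls, with 554 genes higher and 748 lower at an unadjusted p under 0.05.

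A count of 0 does not show that the doses act alike, but the intervals limit how far most genes can differ. Over the 8716 genes averaging 5 TPM or more at either dose, the 95% confidence interval of the log2 fold change reached a median of 0.185 to either side of the estimate, with a 90th percentile of 0.329. For 8454 of these genes (97%) the whole interval lay between -1 and 1 on the log2 scale. The median log2 fold change over all genes tested was 0.00566, so the comparison was centred near 0.

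The 12 genes named for the smallest p on the higher side included Gadd45g, Errfi1 and Csrnp1, and none passed in the 12 mice. Gadd45g, a growth arrest gene induced by stress, had 165.6, 98.43 and 180 TPM in FGL05 and 57.45, 47.08 and 38.69 TPM in MGL05, against 43.34, 51.67 and 85.87 TPM in FGL40 and 21.13, 19.34 and 28.89 TPM in MGL40. Within each sex the lowest GL05 mouse was above the highest GL40 mouse. Its log2 fold change of 1.16 (95% interval 0.73 to 1.58) had an adjusted p of 0.11 by limma. Errfi1, which restrains signalling by the epidermal growth factor receptor, had 530.5, 806.5 and 445.6 TPM in FGL05 and 778.8, 709.9 and 719.6 TPM in MGL05, against 356.6, 279 and 441.5 TPM in FGL40 and 443.5, 393.2 and 386.1 TPM in MGL40. The lowest FGL05 mouse exceeded the highest FGL40 mouse only narrowly, and the males were widely apart (log2 fold change 0.78, interval 0.48 to 1.08, adjusted p 0.114).

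Csrnp1, a nuclear protein first found as a target of AXIN1, had 14.59, 14.03 and 13.17 TPM in FGL05 and 10.86, 10.65 and 9.112 TPM in MGL05, against 5.904, 6.072 and 9.874 TPM in FGL40 and 6.412, 5.532 and 7.23 TPM in MGL40. The groups were again apart in both sexes, with a log2 fold change of 0.74 (interval 0.49 to 1.0, adjusted p 0.11). Trp53inp1, a p53-induced gene, averaged 35.8 ± 7.19 TPM in GL05 and 20 ± 4.01 TPM in GL40 (log2 fold change 0.81). Stbd1, which binds glycogen, averaged 63.4 ± 11.9 and 47.7 ± 13 TPM in GL05 and GL40, a smaller difference of 0.43 without overlap in either sex. The remaining 7 of the 12 genes named on this side were Amn1, Apbb3, Sntb1, Rasgef1b, Rgs1, Camk2b and Sfi1, with log2 fold changes of 0.30 to 1.57, and the 12 had adjusted p-values of 0.11 to 0.127 (limma). Rgs1, a brake on G protein signalling in leukocytes, was at 5.3 ± 2.48 TPM in GL05 and 1.61 ± 0.764 TPM in GL40.

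On the lower side the leading genes included a receptor, a GTPase regulator and a matrix protein. Arhgap26, a GTPase-activating protein, had 3.674, 3.035 and 4.971 TPM in FGL05 and 2.353, 3.951 and 3.963 TPM in MGL05, against 10.71, 9.572 and 13.66 TPM in FGL40 and 6.408, 6.109 and 6.989 TPM in MGL40. Every GL05 mouse was below every GL40 mouse, whatever the sex. The log2 fold change was -1.06 (interval -1.39 to -0.74). Sucnr1, the cell surface receptor for succinate, had 8.229, 5.866 and 10.3 TPM in FGL05 and 5.719, 7.905 and 8.963 TPM in MGL05, against 17.04, 13.45 and 18.2 TPM in FGL40 and 13.89, 14.22 and 18.25 TPM in MGL40. Here too all 6 GL05 mice lay below all 6 GL40 mice, with log2 fold changes of -0.94 in females and -0.96 in males.

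Cnmd, chondromodulin, a glycoprotein of cartilage that restrains blood vessel growth, had 3.816, 2.771 and 7.013 TPM in FGL05 and 1.818, 2.089 and 3.245 TPM in MGL05, against 7.927, 9.16 and 7.61 TPM in FGL40 and 8.426, 8.717 and 6.83 TPM in MGL40. The male groups were far apart, and in females FGL05-2896 came close to the GL40 values (log2 fold change -1.12, interval -1.52 to -0.71, adjusted p 0.11). Arrdc3, an arrestin-related gene, had 42.03, 22.06 and 32.46 TPM in FGL05 and 15.58, 16.03 and 20.86 TPM in MGL05, against 42.22, 114.3 and 53.31 TPM in FGL40 and 49.81, 35.87 and 73.36 TPM in MGL40. Its female groups all but touched, at 42.03 and 42.22 TPM. Of the others named on this side, Adrb3, the beta-3 adrenergic receptor, and Cited2, which competes with HIF-1alpha for its coactivators, had log2 fold changes of -0.87 and -0.39. Abca2, Smim22, Fam149a, Bdh2, Hacd2 and Rhpn2 had log2 fold changes of -0.84 to -0.30 and adjusted p-values of 0.114 to 0.186 (limma).

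**Figure D2:**
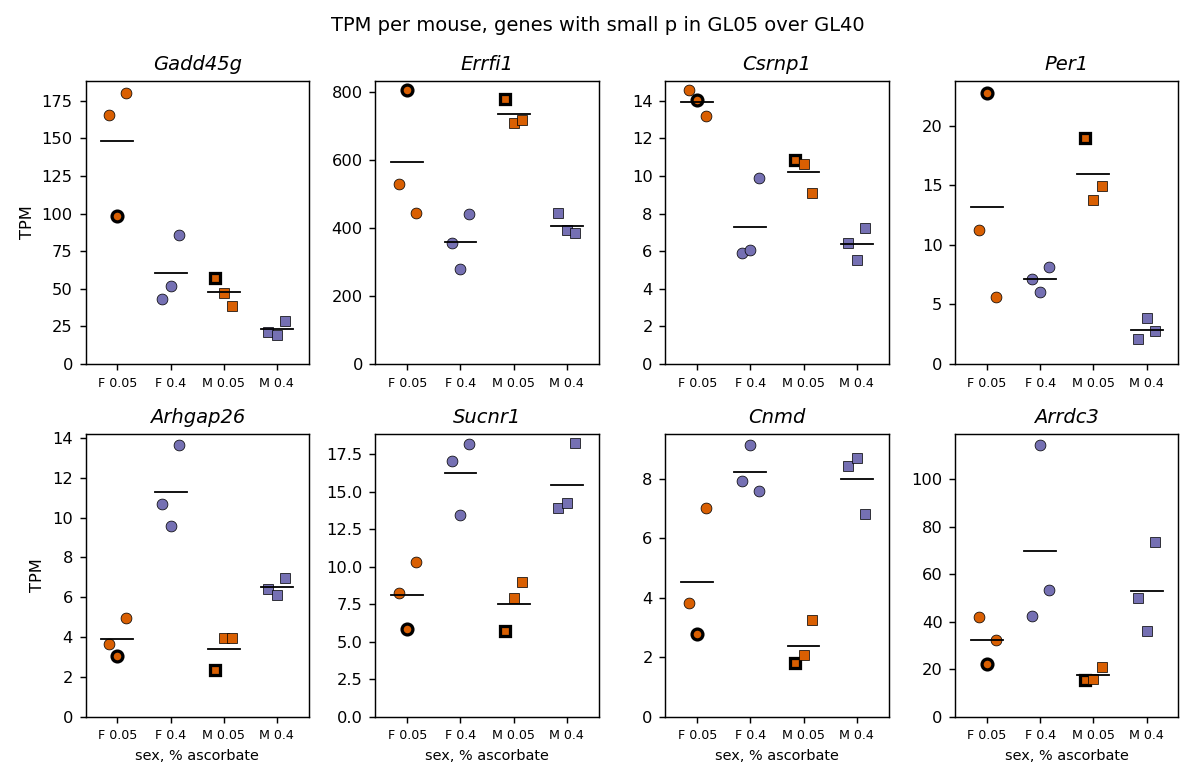
Points are TPM of single livers, with GL05 left of GL40 within each sex, horizontal lines mark the mean of 3 mice, and a thick outline marks FGL05-2895 and MGL05-2890. The top row shows genes higher in GL05 (Gadd45g, Errfi1, Csrnp1 and Per1) and the bottom row genes lower in GL05 (Arhgap26, Sucnr1, Cnmd and Arrdc3); for all but Per1 the groups do not overlap within a sex.

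Counted over all genes, 101 (0.555%) were higher in GL05 without overlap in either sex and 87 (0.478%) were lower in the same way. The fit of all 36 mice, which takes the spread from 12 groups, called 23 genes (0.126%) between GL05 and GL40, of which 15 rose (0.0824%) and 8 fell (0.0439%). For 15 of the 23 the groups did not overlap in either sex. Those that fell were Arhgap26 (adjusted p 0.00938), Sucnr1 (0.00887), Cnmd (0.00932), Plscr2, a phospholipid scramblase, Paxx, a DNA end-joining factor, and Nat8f7, Gm21973 and the pseudogene Cyp2c53-ps, which all averaged under 3 TPM at both doses. The count depended on single mice, running from 10 without FGL40-2694 to 93 without FGL05-2896.

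Among the genes that rose in this fit was the clock repressor Per1, which light, feeding and glucocorticoids also induce. It had 11.23, 22.71 and 5.606 TPM in FGL05 and 19, 13.77 and 14.96 TPM in MGL05, against 7.151, 6.059 and 8.135 TPM in FGL40 and 2.085, 3.824 and 2.761 TPM in MGL40. FGL05-2896 lay below all 3 FGL40 mice, so the females overlapped, whereas every MGL05 mouse exceeded every MGL40 mouse. The log2 fold change was 1.38 (interval 0.67 to 2.09), with an adjusted p of 0.243 from the 12 mice and 0.0168 from the 36.

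Also among the genes that rose were Amn1, Camk2b, Sfi1, Apobec3, a cytidine deaminase active against retroviruses, Hyal1, a lysosomal hyaluronidase, Mbd1, which binds methylated DNA, Miga1, Cnbd2, Rsph3b, Tincr, Adam2, Ubap1l and the predicted gene Gm46223. Gm46223 had the largest difference of these, at 181.1, 478.7 and 204.6 TPM in FGL05 and 255.1, 491 and 952 TPM in MGL05, against 100.9, 97.89 and 100.1 TPM in FGL40 and 70.96, 65.94 and 125.7 TPM in MGL40. FGL05-2895 and MGL05-2898 were the highest mice of their sex. Miga1, a mitochondrial outer membrane protein that promotes fusion, had its highest GL05 values in the same mice, 23.89 TPM in FGL05-2895 and 45.35 TPM in MGL05-2898, with 5.282 to 8.387 TPM in GL40. Both genes had higher means still in mice that make their own ascorbate, of 37.7 and 54.7 TPM for Miga1 and of 795 and 1017 TPM for Gm46223 in WT00 females and males.

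The Per1 promoter carries the letters of a canonical E-box, the element bound by CLOCK and BMAL1, and is shown because Per1 was the clock gene with the largest difference. The sequence is that of RefSeq for GRCm38.p6, chr11:69098699-69098998 on the plus strand, running from 250 bases before to 50 bases after the start, with the E-box in capitals.
Per1: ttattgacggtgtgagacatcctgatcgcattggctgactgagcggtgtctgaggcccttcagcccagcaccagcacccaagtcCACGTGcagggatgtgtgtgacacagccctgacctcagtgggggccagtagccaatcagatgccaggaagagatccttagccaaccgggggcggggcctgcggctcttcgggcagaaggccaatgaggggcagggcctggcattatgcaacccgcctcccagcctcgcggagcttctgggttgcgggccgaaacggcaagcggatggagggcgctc
The E-box, CACGTG, was searched on both strands of that window in the 18 of 22 clock and output genes tested that have a RefSeq promoter, and 5 (27.8%) held it: Per1, Cry1, Tef, Ciart and Bhlhe41. Each gene was represented by the first RefSeq promoter listed for it, and of the 27025 genes with one, 7.24% held the E-box. The D-box TTATGTAA was in 1 of the 18 (5.56%, Per3) and in 0.955% of the 27025. A match describes letters only and is no evidence of binding.

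Of the 22 clock and output genes tested, 3 were higher and 2 lower at an unadjusted p under 0.05 (22.7%, against 7.82% of all genes). These were Per1, Bhlhe40 (0.48 on the log2 scale) and Usp2 (0.53) on the higher side and Cry1 (-0.39) and Npas2 (-0.39) on the lower. The list as a whole had a median log2 fold change of 0.03, and 2 were higher and 1 lower in the 10 mice, with 9 counted without FGL05-2894. Nr1d1, which encodes the clock repressor REV-ERBalpha, averaged 40.7 ± 13.1 TPM in GL05 and 48.1 ± 11.4 TPM in GL40, a difference of -0.27 with an interval of -0.74 to 0.21 that became 0.02 in the 10 mice. All mice were sampled once, so no phase can be read.

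Genes of fasting and gluconeogenesis made up the list with the second highest share of low p-values. Of 24 members tested, 10 were higher in GL05 at an unadjusted p under 0.05 and 0 were lower, a share of 41.7% where 7.82% of all genes were counted, and the median log2 fold change was 0.33 (0.17 in females, 0.40 in males). No member passed the adjusted threshold in either fit. These members and those of the lists that follow are named with their unadjusted p in view, since they were chosen after their values were seen. Pck1, the gluconeogenic carboxykinase, had 1913, 3476 and 1105 TPM in FGL05 and 2285, 1902 and 2362 TPM in MGL05, against 1225, 1737 and 1948 TPM in FGL40 and 1153, 1250 and 1037 TPM in MGL40. Its female groups overlapped fully, with FGL05-2895 at the top and FGL05-2896 at the bottom, and its male groups were apart.

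Tat, tyrosine aminotransferase, averaged 924 ± 140 TPM in GL05 and 629 ± 211 TPM in GL40 (log2 fold change 0.62, interval 0.26 to 0.98, adjusted p 0.324). Nr4a1, an orphan nuclear receptor induced by glucagon, had 116.3, 118.2 and 65.77 TPM in FGL05 and 18.57, 10.23 and 9.471 TPM in MGL05, against 28.71, 43.36 and 72.69 TPM in FGL40 and 5.334, 6.137 and 1.855 TPM in MGL40. The males were apart and the females overlapped at FGL40-2696. The other 7 were G6pc (0.49), Fbp1 (0.28), Irs2 (0.38), Igfbp1 (0.87), Sds (0.53), Got1 (0.77) and Sik1 (0.97), all log2 fold changes, which span glucose output, insulin signalling and amino acid breakdown. In the 10 mice, 5 of the 24 were on the higher side at an unadjusted p under 0.05 and the median was 0.205.

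The glucocorticoid response list overlaps the fasting and clock lists and counted 6 genes higher and 1 lower of 18 (38.9%), with a median log2 fold change of 0.14. Sgk1, a kinase of sodium transport, averaged 55.4 ± 21.6 TPM in GL05 and 29.1 ± 12.4 TPM in GL40 (0.95, adjusted p 0.334). Tsc22d3, the anti-inflammatory gene also called Gilz, averaged 64 ± 17 and 41.5 ± 10.7 TPM in GL05 and GL40 (0.61), and Klf9 had a log2 fold change of 0.32. Per1, Tat and Mt2 were the other 3 on the higher side. In the 10 mice 6 were higher and 0 lower, with a median of 0.06, and the median was 0.285 without FGL05-2896. The exception with all mice was Sult1e1, oestrogen sulfotransferase, which was low at both doses, with means of 0.34 and 1.37 TPM in GL05 and GL40.

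PPAR-alpha, the receptor for fatty acids in the fasted liver, drives fatty acid oxidation. Of its 31 targets tested, 30 had a log2 fold change above 0, as did 9618 of all 18207 genes. The median was 0.22, yet only 3 were higher at an unadjusted p under 0.05 (9.68%, near the 7.82% of all genes). Acot1, Ehhadh and Cyp4a14 are given as examples in which the 2 mice that stand apart held the highest values. These examples do not stand for the whole list or for the 3 counted. In Cyp4a31, of the same P450 family as Cyp4a14, the highest male was MGL05-2898, at 31.92 TPM, and the highest female FGL05-2895, at 27.24 TPM. Acot1, an acyl-CoA thioesterase, was at 470.6 TPM in FGL05-2895 and 451.3 TPM in MGL05-2890, between 93.14 and 156.5 TPM in the other 4 GL05 mice and between 82.83 and 144.6 TPM in GL40. Ehhadh, an enzyme of peroxisomal oxidation, was at 971.8 and 1071 TPM in the same 2 mice, between 195.2 and 425.7 TPM in the other GL05 mice and between 188.9 and 385.7 TPM in GL40. Without these mice the median of the list was -0.01, with 13 members above 0 and 18 below, 0 counted as higher and 2 as lower. The list also turned on other mice, with 12 counted and a median of 0.357 without FGL05-2896, and 0 counted without FGL05-2895 or without MGL40-2691. Cyp4a14, a fatty acid hydroxylase, averaged 1949 ± 1140 TPM in GL05 and 950 ± 267 TPM in GL40 (0.88, interval 0.10 to 1.66), and its difference was 0.40 in the 10 mice.

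**Figure D3:**
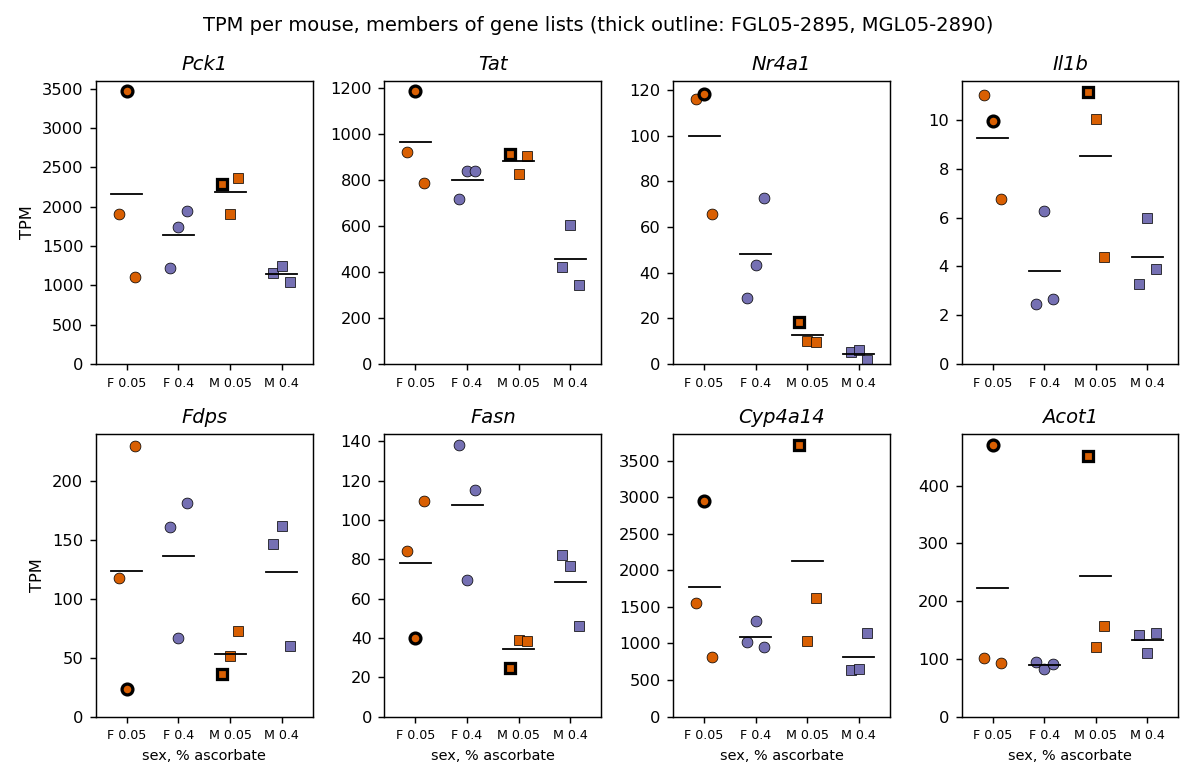
Points are TPM of single livers, GL05 left of GL40 within each sex, with lines at the mean of 3 mice and a thick outline for FGL05-2895 and MGL05-2890. Pck1, Tat, Nr4a1 and Il1b (top) had higher means in GL05, Fdps and Fasn (bottom) lower ones, and for Cyp4a14 and Acot1 the outlined mice were the 2 highest of the 12.

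Cholesterol synthesis, which SREBP2 switches on when cell sterol is low, leaned the other way. Of 20 enzymes 19 had a log2 fold change below 0, as did 8589 of all 18207 genes. The median was -0.41 (-0.22 in females, -0.59 in males). Only 2 enzymes were lower at an unadjusted p under 0.05 (10%, near the 7.82% of all genes). Fdps, farnesyl diphosphate synthase, had 117.4, 23.51 and 229.5 TPM in FGL05 and 35.94, 51.13 and 72.67 TPM in MGL05, against 160.9, 67 and 181.2 TPM in FGL40 and 146.5, 161.6 and 59.7 TPM in MGL40. The FGL05 mice alone spanned 23.51 to 229.5 TPM, and the doses overlapped in both sexes. The interval of its difference, -1.94 to 0.29, includes 0, and the log2 fold change was -0.82 with all mice and -0.449 without FGL05-2895. Hmgcs1, which commits acetyl units to the mevalonate pathway, was 1 of the 2 that were counted, at -0.49. The summed TPM of the pathway was lowest in the 2 mice that stand apart, 891 in FGL05-2895 and 901 in MGL05-2890, and 925 to 2036 in the other 10. Without them the median was -0.15, with 17 of 20 below 0. Without FGL05-2896 instead, 11 of the 20 were counted and the median was -0.57, while 2027 of all genes were counted. Over single mice left out, the count of the list ran from 1 to 11.

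The other genes of the sterol response had a median of -0.37, with 1 of 10 counted as lower (Hmgcs1, which both lists hold), and 6 counted without FGL05-2896. Insig1, which holds SREBP back in the endoplasmic reticulum, averaged 139 ± 110 TPM in GL05 and 175 ± 68.6 TPM in GL40, with an interval of the difference that includes 0. The Hmgcs1 promoter is shown for its match to the core of the sterol response element bound by SREBP, in the RefSeq sequence of GRCm38.p6, chr13:119690101-119690400 on the plus strand, with the match in capitals.
Hmgcs1: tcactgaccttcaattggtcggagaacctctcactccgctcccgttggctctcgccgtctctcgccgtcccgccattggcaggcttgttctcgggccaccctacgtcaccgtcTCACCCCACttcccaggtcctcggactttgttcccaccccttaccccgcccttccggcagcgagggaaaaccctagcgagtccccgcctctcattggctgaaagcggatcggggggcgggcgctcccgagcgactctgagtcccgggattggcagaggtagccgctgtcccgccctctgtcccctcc
The letters searched, TCACNCCAC on either strand, were found in 1 of the 15 cholesterol synthesis genes with a RefSeq promoter (6.67%). They were in 1.22% of all genes with one, each by its first listed promoter. CCAAT, the box of the cofactor NF-Y, was in 13 of the 15 (86.7%) and in 37.9% of all. The other SRE variants of the pathway were not searched, so an absent match says only that these letters are not in the window.

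Lipogenesis held 5 genes lower at an unadjusted p under 0.05 and 0 higher, of 24 (20.8%), with a median log2 fold change of -0.16. Fasn, fatty acid synthase, had 84.4, 40.08 and 109.9 TPM in FGL05 and 24.85, 39.1 and 38.59 TPM in MGL05, against 138.3, 69.4 and 115.1 TPM in FGL40 and 82.21, 76.57 and 45.91 TPM in MGL40. The males were apart, the females overlapped (log2 fold change -0.74, interval -1.31 to -0.17, adjusted p 0.505). Mlxipl, which encodes the glucose-sensing factor ChREBP, averaged 179 ± 28.2 TPM in GL05 and 234 ± 19.8 TPM in GL40 (-0.39, adjusted p 0.228). Acaca, Elovl6 and Fads1, which start, extend and desaturate fatty acids, had differences of -0.47, -0.51 and -0.18. Scd1, a desaturase, was not counted, at 832 ± 584 and 1033 ± 956 TPM in GL05 and GL40 (-0.17, interval -1.18 to 0.84). The count was again 5 lower and 0 higher in the 10 mice, but 12 without FGL05-2896, and the median was -0.0956 without FGL40-2694.

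Acute phase proteins, which hepatocytes secrete in inflammation, counted 6 higher and 0 lower of 32 (18.8%), with a median log2 fold change of 0.13. Hpx, hemopexin, which binds free heme, averaged 2695 ± 349 TPM in GL05 and 2210 ± 128 TPM in GL40 and did not overlap in either sex (0.28, interval 0.11 to 0.45, adjusted p 0.353). Mt2, a metal-binding metallothionein, had 345.1, 751.7 and 687.3 TPM in FGL05 and 22.15, 28.15 and 23.58 TPM in MGL05, against 281.1, 304.6 and 646.8 TPM in FGL40 and 4.676, 14.04 and 9.701 TPM in MGL40. The males were apart and low, the females higher and overlapping (0.98, interval 0.31 to 1.64). Fgl1, a fibrinogen-like hepatokine, averaged 393 ± 158 and 295 ± 155 TPM in GL05 and GL40 (0.49, and 0.305 without MGL05-2897), and Saa2, Lbp and Cd14 completed the 6. Saa1, serum amyloid A1, was at 221.6 TPM in MGL05-2897, at 41.31 to 76.84 TPM in the other GL05 mice and at 38.13 to 72.52 TPM in GL40. Its log2 fold change was 0.57 with all mice and 0.22 without MGL05-2897. The 10 mice counted 7 of the list as higher and 0 as lower.

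The list with the highest share of low p-values was that of hepatic chemokines and NF-kB targets, with 10 genes higher and 0 lower of 22 (45.5%) and a median of 0.17. Il1b, the inflammatory cytokine interleukin-1 beta, had 11.01, 9.951 and 6.76 TPM in FGL05 and 11.16, 10.02 and 4.365 TPM in MGL05, against 2.464, 6.267 and 2.654 TPM in FGL40 and 3.268, 5.983 and 3.904 TPM in MGL40. The females were just apart and the males overlapped at MGL05-2898 (log2 fold change 0.96, interval 0.43 to 1.5, adjusted p 0.285). Ccl6, Vcam1, Icam1 and Nfkbia, a chemokine, a pair of adhesion molecules and the inhibitor of NF-kB, had differences of 0.35, 0.44, 0.22 and 0.21. Ccl2, Ccl3, Ccl4, Cxcl2 and Il6 were also counted, each with means of 1.11 TPM or less at both doses. In the 10 mice 5 were higher and 1 lower.

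Markers of resident immune cells leaned the same way as this list. Of 15 Kupffer cell markers 14 had a log2 fold change above 0 and 4 were higher at an unadjusted p under 0.05 (26.7%): C1qa, C1qb, Vsig4 and Cd163, with differences of 0.25 to 0.43 and a median of 0.19 over the list, and 4 were higher in the 10 mice as well, and 9 were counted without FGL05-2896. The summed TPM of these markers ran from 678 to 919 in FGL05 and from 618 to 680 in FGL40, and from 480 to 667 in MGL05 and from 495 to 528 in MGL40. The defining markers Clec4f and Cd5l were present at both doses, at 94.4 ± 32.4 and 96 ± 34.1 TPM in GL05 and 81.5 ± 17.6 and 80.5 ± 28.3 TPM in GL40. T and NK cell markers counted 3 higher and 0 lower of 14 (21.4%), 1 without FGL40-2696 and 5 without FGL05-2895, and the 10 monocyte and neutrophil markers tested counted 0 in either direction. The lean in direction was not particular to Kupffer cells. B and plasma cell markers were above 0 in 8 of 9 (median 0.25), and endothelial markers in 12 of 13 (median 0.09). At an unadjusted p under 0.05, however, only 1 of 9 (11.1%) and 1 of 13 (7.69%) were counted, where 7.82% of all genes were. Stellate cell and fibroblast markers were below 0 in 10 of 14 (median -0.04). The part of resident macrophages in the chemokine result was not tested.

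**Figure D4:**
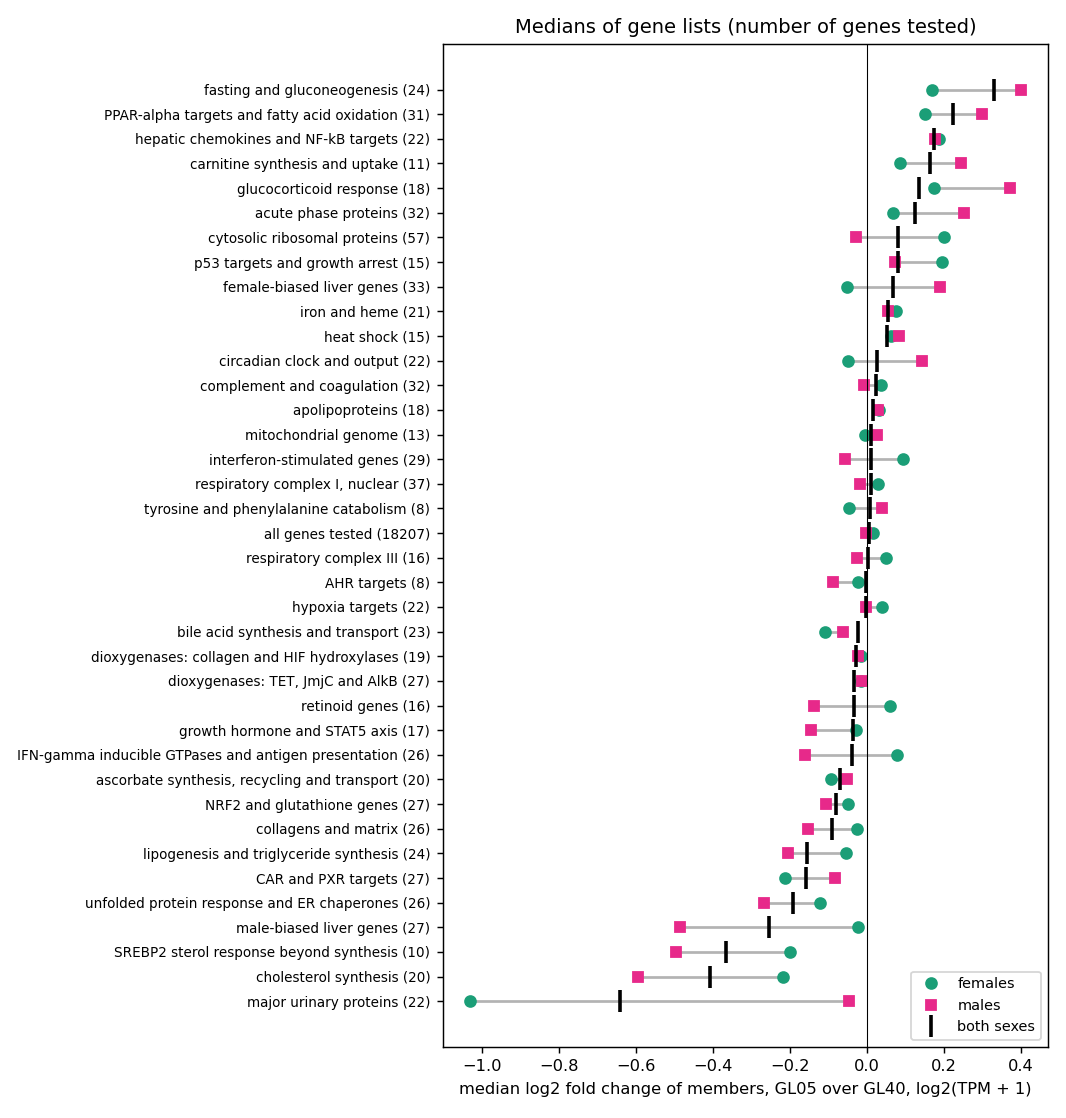
Rows are the 37 pathway lists and all genes tested, and the horizontal axis is the median log2 fold change of GL05 over GL40, with a bar for both sexes, a circle for females and a square for males. The medians run from -0.64 (major urinary proteins) to 0.33 (fasting and gluconeogenesis), while that of all genes is 0.00566.

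Genes of the unfolded protein response were lower in 4 and higher in 0 of 26 at an unadjusted p under 0.05 (15.4%), with a median of -0.19. They were Dnajb9 (-0.40), Pdia4 (-0.34), Xbp1 (-0.33) and Sel1l (-0.19), which fold secreted proteins, drive the response or clear misfolded ones. Hspa5, its main chaperone, averaged 425 ± 109 and 534 ± 173 TPM in GL05 and GL40, with an interval of -0.73 to 0.13, and 2 members were lower in the 10 mice. The count was 15 without FGL05-2896 and 2 without several other mice, and the median was -0.105 without MGL40-2690. CAR and PXR targets, the drug-metabolising genes, counted 5 lower and 1 higher of 27 (22.2%). Cyp2b10 had 129.4, 8.626 and 229.8 TPM in FGL05 and 5.229, 5.509 and 7.81 TPM in MGL05, against 225.1, 141 and 213.5 TPM in FGL40 and 10.52, 39.14 and 15.21 TPM in MGL40. The males were apart, and among females FGL05-2895 alone was far below the rest (log2 fold change -1.49, interval -2.92 to -0.07, and -0.872 without that mouse). Gstm3, Cyp2c29, Gsta2 and Ces2c had differences of -1.48, -0.82, -0.77 and -0.45, and Por, the electron donor of the P450s, had 0.32. Gstm3 and Gsta2 also belong to the NRF2 and glutathione list, where 4 of 27 were lower and 0 higher (14.8%, against 7.82% of all genes). In the 10 mice 3 CAR and PXR targets were lower and 1 higher, and single mice left out gave 2 (MGL05-2898) to 11 (MGL40-2690).

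The sex-biased secretory genes of the liver were less even. Major urinary proteins had a median log2 fold change of -0.64 (-1.03 in females, -0.05 in males), and 3 of 22 were lower at an unadjusted p under 0.05 (13.6%). The genes are near-identical copies, so values of single members are uncertain and the sum is surer. As a share of all TPM the family made up 1.21% to 3.24% in FGL05 and 2.75% to 4.03% in FGL40, and 5.74% to 14.9% in MGL05 and 7.52% to 11.7% in MGL40. Both sexes overlapped, and the median of the members was -0.39 in the 10 mice, with 9 counted without MGL05-2897. Male-biased genes had a median of -0.26 (-0.49 in males). Serpina12, Gstp2 and Nat8 were counted as lower of 27 (11.1%, near the 7.82% of all genes), and 6 were counted without FGL05-2896. The growth hormone and STAT5 axis, which sets this bias, counted 2 higher and 2 lower of 17 at an unadjusted p under 0.05. That is a share of 23.5%, against 7.82% of all genes. Stat5a (-0.28) and Stat5b (-0.21) were lower, and Socs3 (0.51) and Igfbp1 (0.87) higher. Igf1 averaged 327 ± 29.3 and 323 ± 34.3 TPM in GL05 and GL40 (interval of the difference -0.12 to 0.16).

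Of 20 genes of ascorbate synthesis, recycling and transport, 2 were higher and 1 lower at an unadjusted p under 0.05 (15%, where 7.82% of all genes were counted), and the median was -0.07. The count was 1 without FGL05-2895. Glrx, a glutaredoxin, averaged 60.2 ± 9.52 and 50 ± 7.9 TPM in GL05 and GL40, and Ugdh, which makes the glucuronate precursor, 103 ± 22.1 and 132 ± 23.4 TPM. The third, Slc23a3, a relative of the vitamin C transporters, was under 1 TPM at both doses. Slc23a1 and Slc23a2, the sodium-coupled ascorbate transporters, averaged 21.1 ± 7.18 and 10 ± 2.66 TPM in GL05 and 22.9 ± 4.84 and 9.61 ± 2.38 TPM in GL40. Rgn, the gluconolactonase one step before Gulo, averaged 561 ± 219 and 587 ± 161 TPM in GL05 and GL40.

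Genes of the ascorbate-dependent dioxygenases were counted in both directions. The TET, JmjC and AlkB genes counted 2 higher and 3 lower of 27 (18.5%, against 7.82% of all genes), with a median of -0.03, and 3 were counted without FGL05-2894. Kdm2a, a histone H3 lysine demethylase, averaged 23.4 ± 1.77 TPM in GL05 and 29 ± 2.79 TPM in GL40, without overlap in either sex (log2 fold change -0.29, interval -0.43 to -0.15, adjusted p 0.196). Kdm8 and Alkbh3 had -0.29 and -0.16, and Tet3 and Kdm7a 0.22 and 0.27. The collagen and HIF hydroxylases counted 1 higher and 2 lower of 19 (15.8%), and 1 in all without FGL40-2696. Egln3, a HIF prolyl hydroxylase whose own gene responds to hypoxia, averaged 11.7 ± 2.94 and 8.05 ± 1.28 TPM in GL05 and GL40 (0.47). Tet2, P4ha1 and P4hb averaged 5.9, 4.2 and 560 TPM in GL05 and 6.22, 4.3 and 572 TPM in GL40. Carnitine synthesis and uptake, which includes dioxygenase steps, counted 1 higher and 2 lower of 11 (27.3%). The higher one was Crot, carnitine octanoyltransferase (0.27), and the lower ones were the serine hydroxymethyltransferases Shmt1 (-0.15) and Shmt2 (-0.20). The count was 7 without FGL05-2896 and 1 without FGL05-2895.

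The respiratory chain gave narrow intervals. Complex III, which passes electrons on to cytochrome c, had 0 of 16 subunit and assembly genes counted in either direction and a median of 0.00. Uqcrc1 averaged 196 ± 16.8 TPM in GL05 and 194 ± 7.05 TPM in GL40, with an interval of -0.13 to 0.14, and Uqcrc2 151 ± 12.6 and 150 ± 5.25 TPM, with -0.12 to 0.14. Cytochrome b, the mitochondrial subunit (mt-Cytb), averaged 11030 ± 956 and 10950 ± 1285 TPM in GL05 and GL40. None of the 37 nuclear complex I genes, the 13 protein genes of the mitochondrial genome or the 29 interferon-stimulated genes tested was counted at an unadjusted p under 0.05. Cytosolic ribosomal proteins were above 0 in 56 of 57, as were 9618 of all 18207 genes, with a small median of 0.08 (0.20 in females, -0.03 in males). Only 4 of the 57 were counted at an unadjusted p under 0.05 (7.02%, near the 7.82% of all genes).

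Among the remaining lists, that of p53 targets and growth arrest had the highest share, with 3 of 15 higher and 2 lower (33.3%). Gadd45g, Trp53inp1 and Btg2 (0.90) were on the higher side and Gadd45a (-0.40) and Gdf15 (-0.58) on the lower, and 3 were higher and 1 lower in the 10 mice. Without FGL40-2696 3 were counted in all. Abcg8, a subunit of the sterol exporter of the canalicular membrane, averaged 51.9 ± 11.5 TPM in GL05 and 67.5 ± 12 TPM in GL40 and did not overlap in either sex (-0.38, interval -0.57 to -0.20, adjusted p 0.2), and the bile salt export pump Abcb11 had -0.30, the 2 of 23 bile acid genes that were counted (8.7%). Retinoid genes counted 3 lower of 16 (18.8%), 1 without FGL05-2895 and 5 without FGL05-2896, with Aldh1a1, retinal dehydrogenase, at 718 ± 226 and 905 ± 277 TPM in GL05 and GL40. All 8 cholangiocyte markers tested were below 0 with a median of -0.13, and Spp1 (-0.34) and Sox9 (-0.36) were counted (25%), as were 4 without FGL40-2694.

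The sexes were also compared one by one. Within females none of the 18207 genes passed (0%; smallest adjusted p 0.279 by limma), with 960 (5.27%) at an unadjusted p under 0.05. Within males none passed either (0%; 0.162), with 1319 (7.24%), but without the 2 mice that stand apart 15 did, 11 higher and 4 lower, Per1 among them, and the fit of 36 mice called 23 in males and 1 in females. Whether the dose difference itself differed between the sexes was tested as an interaction, and none passed (0%; smallest adjusted p 0.42), with 850 genes (4.67%) at an unadjusted p under 0.05. A larger difference in one sex is thus not shown for any single gene.

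The genes with the smallest interaction p are given by their values. Hamp2, a paralogue of the iron hormone hepcidin, had 1041, 993.1 and 535 TPM in FGL05 and 185.6, 133.1 and 244.6 TPM in MGL05, against 2088, 929.2 and 1918 TPM in FGL40 and 29.2, 24.9 and 72.95 TPM in MGL40. Females leaned lower with overlap (-0.92), males higher without (2.24). Hamp, hepcidin itself, showed neither, at 3629 ± 1611 TPM in GL05 and 3443 ± 1202 TPM in GL40. Serpina7, the thyroxine-binding globulin, had log2 fold changes of 0.90 in females and -1.03 in males, and Orm3, an orosomucoid, -1.26 and 0.33. Kifc3, Slc15a4 and Tipin completed the 6, with female minus male differences of 0.69, -0.65 and 0.67.

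Set beside the lower doses, the step between 0.05% and 0.4% gave few calls. The same fit of 36 mice called 4788 genes (26.3%) for GL00 over GL40 and 4605 (25.3%) for GL01 over GL40, against the 23 (0.126%) for GL05 over GL40, and these comparisons share the GL40 mice. GL05 over GL01 gave 2799 (15.4%), a comparison added after seeing the data. Splits into higher and lower depended on the scaling, as TPM are relative. For GL01 over GL40 they were 3272 (18%) and 1333 (7.32%) as deposited, 1820 and 2202 after median-ratio scaling and 2005 and 1872 with Mup genes left out of the total. For GL00 over GL40 they were 2772 (15.2%) and 2016 (11.1%), 2424 and 2596, and 1886 and 3096 in that order, and for GL05 over GL01 741 (4.07%) and 2058 (11.3%), 1301 and 875, and 1090 and 962.

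The group means from 0 to 0.4% show where GL05 lay. The group at 0, GL00, had 0.4% ascorbate before its removal, so dose and regimen differ together at that end. Fgl1 averaged 2277, 1342, 501 and 429 TPM in females and 1802, 561, 284 and 160 TPM in males at 0, 0.01%, 0.05% and 0.4%, so its GL05 mean was nearer to that of GL40 than to that of GL01 in both sexes. Mup20, the pheromone darcin, averaged 318, 1208, 6055 and 8497 TPM in males over the same doses. Slc13a2, a dicarboxylate carrier, averaged 0.252, 0.24, 1.91 and 3.25 TPM in females and 0.271, 0.352, 0.858 and 2.31 TPM in males. Its 0.05% mean was thus between those of 0.01% and 0.4% in both sexes, with a log2 fold change of -0.70 (interval -1.11 to -0.29) and an adjusted p of 0.33 in the 12 mice and 0.0659 in the 36.

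The means of Gadd45g and Arhgap26 neither rose nor fell steadily from 0 to 0.4%. Because GL00 also differs in regimen, no dose order can be read from its place. Gadd45g averaged 110, 69.0, 148 and 60.3 TPM in females and 54.2, 18.5, 47.7 and 23.1 TPM in males from 0 to 0.4%, so the female mean was highest at 0.05%. In both sexes Arhgap26 had lower means in GL01 and GL05 than in GL00 and GL40. It averaged 7.5, 3.44, 3.89 and 11.3 TPM in females and 6.59, 2.22, 3.42 and 6.5 TPM in males. It was at 3.5 and 3.79 TPM in GLR40 and at 4.99 and 3.3 TPM in WT00 females and males, so the GL05 means were closer to those of WT00 than the GL40 means were. Per1 averaged 26.6, 27.5, 13.2 and 7.12 TPM in females and 24.7, 15.6, 15.9 and 2.89 TPM in males, with the lowest mean at 0.4% in both sexes. Fdps averaged 26.6, 22.1, 124 and 136 TPM in females and 63.4, 28.1, 53.3 and 123 TPM in males, but only 23.9 and 39.8 TPM in GLR40 and 47.6 and 26.6 TPM in WT00 females and males, so its GL40 means were above those of mice that make ascorbate.

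**Figure D5:**
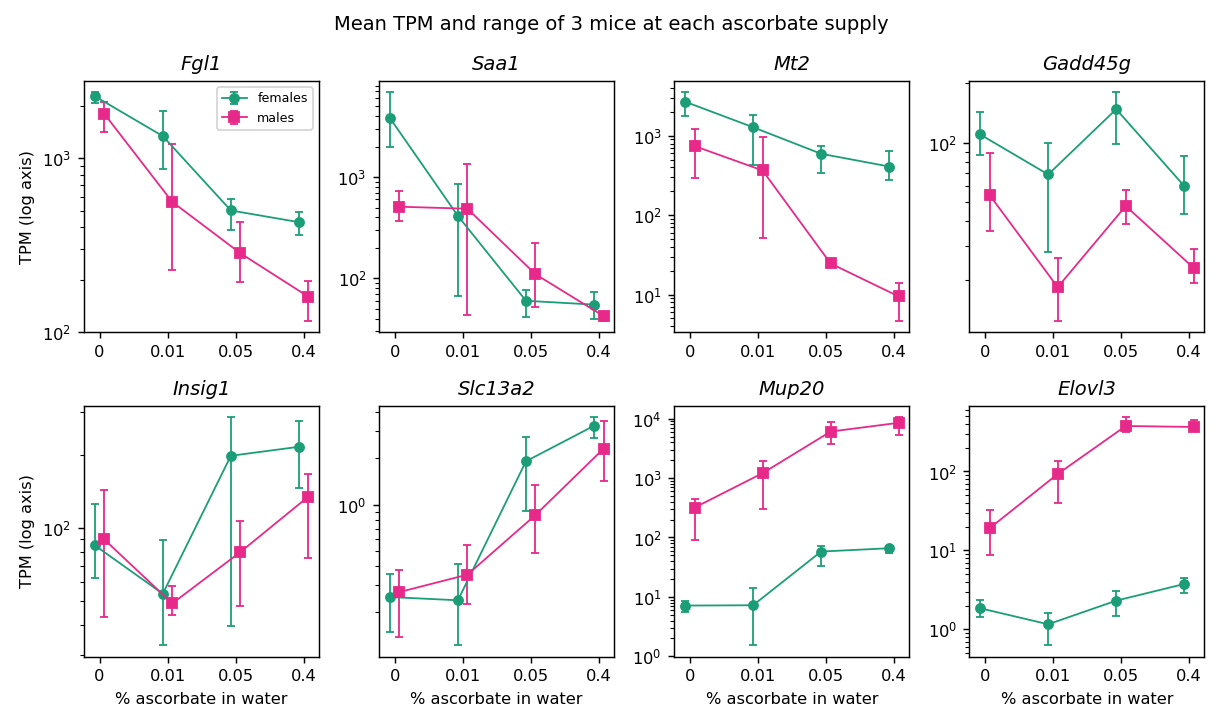
Lines join the mean TPM of 3 mice (log axis) at 0, 0.01%, 0.05% and 0.4% ascorbate for females and males, with bars from the lowest to the highest mouse. Fgl1, Saa1 and Mt2 have their lowest means at 0.05% and 0.4%, and Mup20 and Slc13a2 their highest means at these doses in both sexes. The means of Gadd45g neither rise nor fall steadily. The mice at 0 had 0.4% ascorbate before its removal.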

How the data were processed

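Whole-liver RNA of 36 mice was sequenced by the authors, who deposited TPM values of 36066 genes. The submitters' processing notes name fastp 0.20.0 and kallisto 0.46.2, and per the methods reads were aligned to an Ensembl mouse transcriptome. How transcripts were summed to genes is not given in the sources used here. TPM keep no depth, so no count model was used, and 0 other columns of per-sample values were left aside. Mice were grouped by label.

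Genes with a TPM above 0 in at least 8 of 12 mice were compared on log2(TPM + 1) with limma 3.58.1 (R 4.3.3, statmod 1.5.0, empirical Bayes with trend and robust), sex as a block and Benjamini-Hochberg adjustment over all genes tested. A gene was called at an adjusted p under 0.05. Fold changes are on the log2(TPM + 1) scale, which understates the change of low genes. Further fits had 1 mean for each of 4 groups, or 12 groups in all 36 mice. Scripts were tested on simulated data. Python 3.11.15 and matplotlib 3.10.9 drew the plots.

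Named by rule were the 12 genes of smallest p in each direction with a mean of at least 5 TPM (predicted genes and pseudogenes left out), the 2 most abundant members of each list, 6 interaction genes and 16 genes listed by name. The members, the 37 pathway and 13 marker lists and the rule were chosen with earlier results of these data known. A few genes named by these rules are not reported here. Promoters are RefSeq sequences of GRCm38.p6, the first listed for each gene, used for sequence only. Alternatives were another pseudocount and scaling, other filters, array weights, a ratio of 1.5, and leaving out mice.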

Additional observations from a re-analysis of the deposited data

Results flagged for a closer look

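In 6 of 136 measures tested, 1 mouse lay far from the other 5 of its dose by Dixon's gap ratio. For genes the ratio was taken on log2(TPM + 1). The mice of a dose mix the sexes, so the usual rate of 1 in 20 for this ratio does not hold. No chance rate is given. FGL05-2895 was high for Rasgef1b, at 25.2 TPM with 13.8 TPM next and 9.57 TPM lowest among GL05 mice. MGL05-2897 was high for Saa1, at 222 TPM with 76.8 TPM next, and for the pseudogene Cyp2c53-ps, at 0.723 TPM with 0.172 TPM next. Among GL40 mice FGL40-2695 was high for Rhpn2, at 12.4 TPM with 10.8 TPM next, and for the share of pancreatic acinar transcripts, at 1.646% with 0.01165% next. MGL40-2690 was high for Mbd1, at 26.4 TPM with 16.8 TPM next. The cause was not tested for any of these.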

How the results depend on the processing

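No paired analysis was possible because the animal numbers differ between the doses. Of the counts in 12 mice, both sexes gave 2 with at least 1 TPM in 6 mice and 23 with the spread of all 36 mice, females gave 1 with no filter and 1 with 36 mice, and males gave 23 with 36 mice and 15 in the 10 mice without FGL05-2895 and MGL05-2890. Leaving out 1 mouse gave 0 to 13 for both sexes, 0 to 1 for females, 0 to 3 for males and 0 to 1 for the interaction. In the fit of 36 mice it gave 10 to 93 for GL05 over GL40, 3821 to 4726 for GL01 over GL40, 4106 to 4560 for GL00 over GL40 and 1790 to 3098 for GL05 over GL01. Array weights called 54 for GL05 over GL40. A ratio of 1.5 left 1668 for GL01 over GL40, 1832 for GL00 over GL40 and 888 for GL05 over GL01, as fewer genes meet both criteria. Under the other settings these counts stayed within 1.5 times.

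Of the log2 fold changes of 164 named genes under 24 settings, 3846 kept direction and side of the threshold, 34 (26 genes) newly passed it and 43 (16 genes) changed sign. With a pseudocount of 0.1 Ddx3y was -0.0778. Median-ratio scaling gave -0.00569 for Uqcrc1 and -0.00432 for Uqcrc2, and leaving out Mup genes -0.000227 for Uqcrc1. The 10 mice gave -0.0452 for Uqcrc1, -0.0451 for Uqcrc2, 0.0224 for Nr1d1, -0.00111 for Fabp1, -0.547 for Fgf21, -0.44 for Vnn1 and 0.0373 for Cyp3a11. Without single mice the ranges were -0.00863 to 0.0675 for Ddx3y, -0.0193 to 0.0458 for Uqcrc1, -0.0362 to 0.0425 for Uqcrc2, -0.159 to 0.343 for Slco1a1, -0.0816 to 0.198 for Hamp, -0.258 to 0.0566 for Mup22, -0.288 to 0.701 for Fgf21, -0.205 to 0.44 for Vnn1, -0.366 to 0.035 for Cyp3a11, -0.0482 to 0.263 for Serpina3k, -0.00914 to 0.157 for Gulo, -0.354 to 0.0996 for Serpina7, -0.133 to 0.0252 for Tipin and -0.418 to 0.128 for Scd1. The cause was not tested. With 3 mice a group and the depth of each library unknown, small differences of low genes were not detectable.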
